A study of Mus musculus with 7 samples.

Results

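The HCN genes described here, Hcn2, Hcn3 and Hcn4, encode pore-forming subunits of hyperpolarization-activated cyclic nucleotide-gated channels. They were chosen by name, as 3 of 21887 protein-coding genes with a position in the mouse gene table, and every Fos peak within 50 kb of a gene's span was taken. This gave 18 peaks, 6 from saline and 12 from kainic acid lists, which merged into 15 of the 68873 regions of the series. The peaks came from chromatin immunoprecipitation and sequencing (ChIP-seq) with an anti-Fos antibody on hippocampus of wild-type C57BL/6J mice aged 2 months. The 3 saline libraries came from mice given saline, and the 3 kainic acid libraries from mice given kainic acid, a glutamate receptor agonist that provokes seizures, at 10 mg/kg in both of a pair of intraperitoneal injections 30 min apart. Those mice had reached seizure level 4 and were killed 1 hour after the first injection. Whole hippocampus was used, so all its cell types contributed, and peak lists hold no expression by which to check the tissue. The number of animals behind a library is not given in the labels. The p-values below therefore measure only the spread between these libraries.

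HCN channels open when the membrane hyperpolarizes and pass a mixed sodium and potassium current, which cyclic AMP enhances by binding to the channel's intracellular end. The subunits assemble into tetramers. The current paces rhythmic firing in heart and thalamus, and in hippocampal neurons it sets the resting potential and dampens the summation of dendritic inputs. Hcn2 is widely expressed in brain, Hcn4 is the main subunit of the cardiac pacemaker, and Hcn3 is the least studied of these subunits. Fos is an inducible subunit of the AP-1 transcription factor, made by neurons after strong activity. AP-1 sites were searched here with the pattern TGANTCA, where N stands for any base.

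The members differ in size and surroundings. On GRCm38 (the mm10 build of the lists), Hcn2 spans chr10:79716634-79736108 (19.5 kb), Hcn3 spans chr3:89146775-89160284 (13.5 kb) and Hcn4 spans chr9:58822949-58863175 (40.2 kb). Hcn2 has 10 other protein-coding genes within 50 kb and Hcn3 has 8, against a median of 3 over all protein-coding genes. Hcn4 has 2, Rec114 on one side and Neo1 on the other. Of the 8 peaks within 50 kb of Hcn2, 1 had Hcn2 as its nearest protein-coding gene, and this held for 2 of 7 at Hcn3 and 1 of 3 at Hcn4.

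The RefSeq table of start sites has none for Hcn3. The start-site sequences of Hcn2 and Hcn4 are shown because the peaks differ plainly there: a saline peak lies next to the Hcn4 start site, and none of the 6 lists has a peak at that of Hcn2. Each runs 5′ to 3′ on the plus strand from 250 bases before the start site, with the 50 bases from the start site onward in capitals. They are from RefSeq, build GRCm38.p6, at chr10:79716384-79716683 for Hcn2 and chr9:58822699-58822998 for Hcn4.
Hcn2: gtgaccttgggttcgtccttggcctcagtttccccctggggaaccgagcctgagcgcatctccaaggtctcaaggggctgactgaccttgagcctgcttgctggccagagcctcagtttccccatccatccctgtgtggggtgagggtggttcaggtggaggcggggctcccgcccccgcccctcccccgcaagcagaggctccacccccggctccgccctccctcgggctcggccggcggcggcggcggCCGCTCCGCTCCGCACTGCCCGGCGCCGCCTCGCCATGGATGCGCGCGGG
Hcn4: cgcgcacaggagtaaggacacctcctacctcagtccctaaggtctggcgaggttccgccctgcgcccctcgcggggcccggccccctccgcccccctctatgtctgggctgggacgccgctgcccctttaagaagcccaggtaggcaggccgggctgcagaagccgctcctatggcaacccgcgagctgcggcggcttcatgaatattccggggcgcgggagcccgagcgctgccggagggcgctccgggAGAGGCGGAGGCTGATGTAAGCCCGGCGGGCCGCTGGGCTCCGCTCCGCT

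Neither sequence holds TGANTCA, nor TGACGTCA, the cyclic AMP response element to which some AP-1 dimers also bind, on either strand. Of 32851 promoter windows of the same length in the RefSeq table, 7.81% hold the first motif and 1.79% the second, and no match of the second motif contains the first. No match says only that these letters are not in this window. Both windows are rich in G and C, at 72.3% for Hcn2 and 71.7% for Hcn4 against a median of 52.7% over all windows. The Hcn2 window holds 26 CG dinucleotides and the Hcn4 window 31, against a median of 7.

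Peaks near the 3 genes were few and none was shared between treatments. Of the 9 regions with a kainic acid peak, 3 were in at least 2 kainic acid lists, 6 were in 1 list and 0 were in all 3. One of the 3 replicated regions lay inside Hcn3 and another 6.33 kb before Hcn4. Hcn2 had no replicated region within 50 kb, so 2 of the 3 genes had one, where 62.7% of all protein-coding genes did. A region in all 3 lists was within reach of 42.5% of protein-coding genes. Of the 6 regions with a saline peak, all 6 came from saline replicate 2, and 0 overlapped a kainic acid peak. How often saline regions overlap kainic acid peaks over the whole series is not given here. The 0 therefore has no background beside it and is not read as particular to HCN genes.

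**Figure D1:**
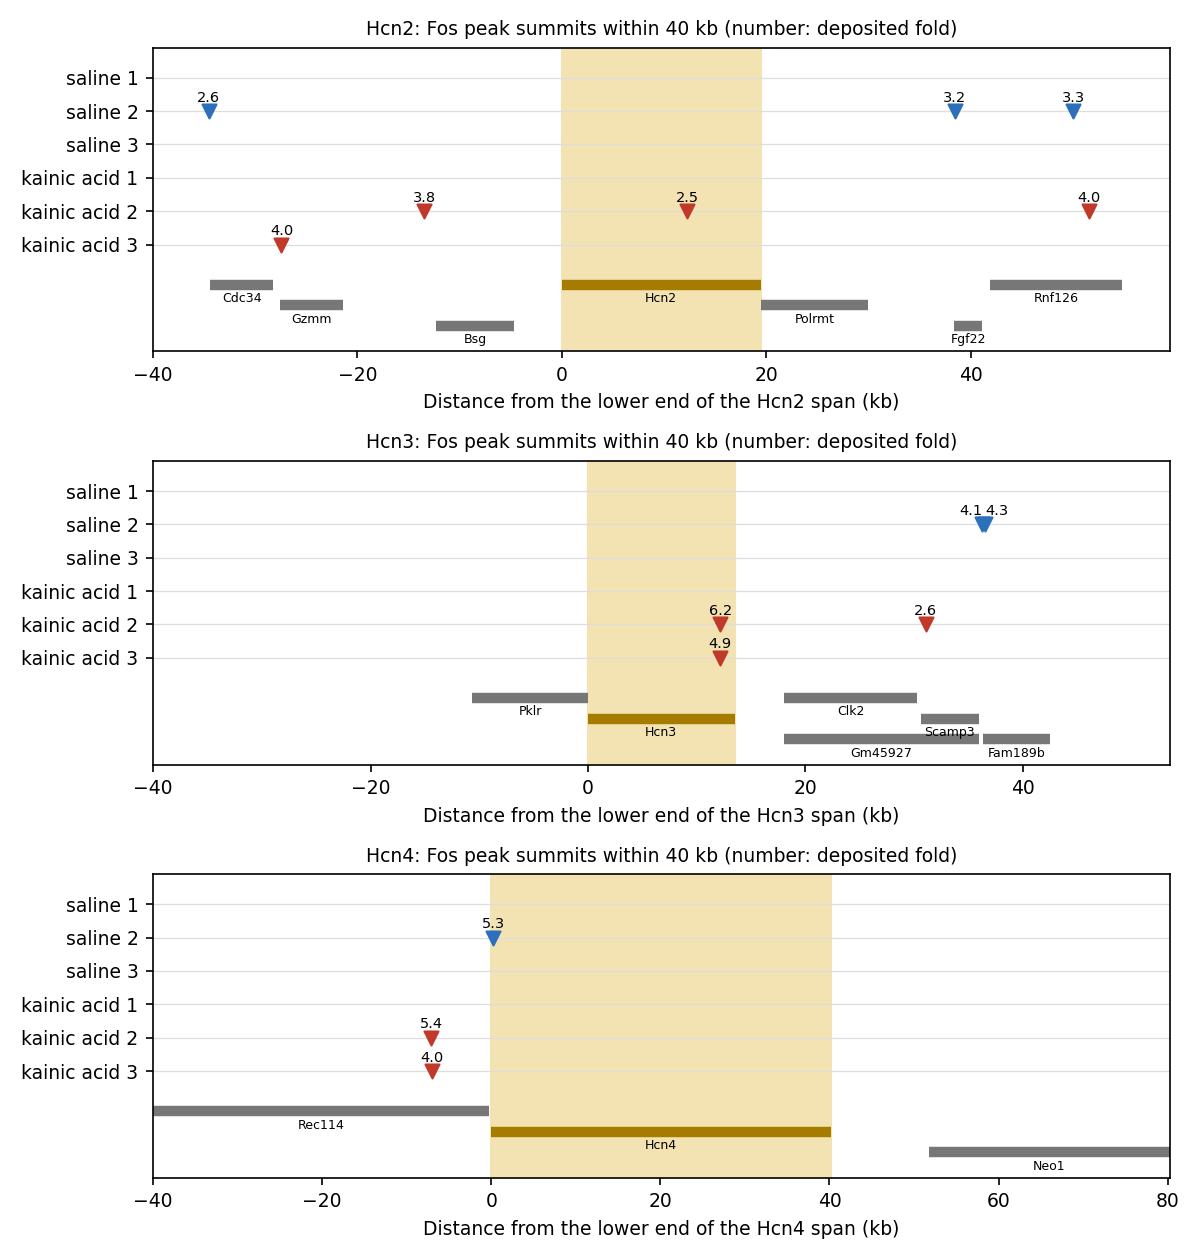
Summits of the 15 Fos peaks within 40 kb of Hcn2, Hcn3 and Hcn4 (triangles, 1 row per library; 3 kainic acid peaks between 40 and 50 kb are not drawn), by distance in kb from the lower-coordinate end of each gene, with the authors' fold above each triangle; grey bars are neighbouring protein-coding genes and the shaded band is the HCN gene. Summits of kainic acid replicates 2 and 3 line up inside Hcn3 and before Hcn4, and no saline triangle stands over a kainic acid one.

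In Hcn2 the single peak inside the gene was among the weakest of its list. Kainic acid replicate 2 had it at chr10:79728908-79729333, with its summit 12278 bp after the start site, a fold of 2.51 and rank 62432 of 63197. Folds here are the authors' own values, the ratio of the peak to the local background of its library, and are compared only as ranks within a list. Kainic acid replicate 2 had 2 further peaks in the window, at chr10:79703064-79703270 near Bsg (fold 3.78) and at chr10:79768047-79768589 inside Rnf126 (fold 3.97). Bsg encodes basigin, a membrane glycoprotein that accompanies lactate transporters, and Rnf126 a ubiquitin ligase. Kainic acid replicate 3 had 2 other peaks, at chr10:79689029-79689380 in Gzmm (fold 3.97) and at chr10:79778052-79778358 in Fstl3 (fold 4.57). Kainic acid replicate 1 had 0. All 5 of these kainic acid positions were thus seen in 1 library each.

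The reach of 50 kb decides this absence for Hcn2. The nearest replicated region stood just outside it, 57.7 kb from the span at chr10:79793840-79794732, where Prss57 and Palm overlap. Palm encodes paralemmin, a membrane-bound protein of neurons. That region was in all 3 kainic acid lists with folds of 6.54, 13.8 and 7.83 in replicates 1, 2 and 3, which put it in the top 11.4%, 1.74% and 5.18% of those lists. The farthest kainic acid peak inside the reach, the one in Fstl3 at 41.9 kb, ranked at 33.1% of its list. A second region in all 3 lists lay 83.0 kb away, at chr10:79632827-79633672 inside Shc2. It ranked at 97.4%, 4.46% and 37.3% of the lists of replicates 1, 2 and 3, so its support in replicate 1 was a peak near the bottom of the list. The Palm region is closer to several genes other than Hcn2, and which gene it belongs to was not tested.

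Hcn3 had the only replicated region inside an HCN gene. It lay at chr3:89158766-89159269, and its summits in the lists that held it were 5 bp apart, 1340 and 1335 bp inside the end of the gene at the higher coordinate. Kainic acid replicate 2 gave it a fold of 6.25, a −log10 q of 12.4 and rank 13014 of 63197, the top 20.6%. Kainic acid replicate 3 gave it a fold of 4.94, a −log10 q of 9.94 and rank 8005 of 29650, the top 27.0%. Kainic acid replicate 1, the shortest kainic acid list, and all 3 saline lists had no peak there. Further along the window, replicate 2 had a weak peak in its list alone at chr3:89177672-89177878, inside Scamp3, with a fold of 2.64 and 98.1% of the way down the list. Scamp3 encodes a membrane protein of vesicle trafficking.

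Near Hcn4 the only region with a kainic acid peak lay before the gene, at chr9:58815637-58816617, 6.33 kb from the span and inside the neighbouring gene Rec114, which has a role in meiotic recombination. Kainic acid replicate 2 had its summit 7115 bp before the Hcn4 start site, with a fold of 5.40 and rank 18741 of 63197. Kainic acid replicate 3 had its summit 6998 bp before the start site, with a fold of 3.97 and rank 14778 of 29650. These are the top 29.7% and 49.8% of the lists, and replicate 1 had no peak in the window. No kainic acid list had a peak inside Hcn4.

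In saline replicate 2 a peak lay at the Hcn4 start site instead. It covered chr9:58823037-58823365, with its summit 238 bp after the start site and its first base 39 bp past the last base of the sequence printed above. Its fold of 5.31 and rank of 264 among 3277 peaks put it in the top 8.06% of that list, the best rank among the 18 peaks near HCN genes, each taken within its own list. The other saline peaks lay at neighbours of Hcn2 and Hcn3. Near Hcn2 they were at Cdc34 (fold 2.60), Fgf22 (3.16) and Rnf126 (3.28), ranked at 99.1%, 91.8% and 89.2% of the list. Near Hcn3 both were at Fam189b (4.11 and 4.31), ranked at 52.2% and 43.6%. Saline replicates 1 and 3 had none near the 3 genes, but their lists hold 7 and 2 peaks in all.

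The saline and kainic acid peaks also differed in where they sat. All 6 saline summits lay within 1 kb of a start site in the RefSeq table, at distances from 37 to 247 bp, and 2 of the 12 kainic acid summits did, those in Gzmm and Fstl3. The same holds for the lists as a whole: on the chromosomes of that table, 58.3% of the summits of saline replicate 2 lay within 1 kb of a start site, against 6.51%, 10.8% and 8.03% in kainic acid replicates 1, 2 and 3. The saline peaks near HCN genes thus sat where most peaks of their list sit. Saline replicate 2 is a single library, and saline replicates 1 and 3 hold too few peaks to compare. The start site of Hcn3 is not in the RefSeq table and does not enter these distances.

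The kainic acid peaks were spread over the ranks of their lists. Of the 12, 5 ranked below the middle of their list by fold and 1 was among the top 20%. A −log10 q of at least 10 was reached by 2 of the 12, both in the Hcn3 window and in kainic acid replicate 2, while 23.7%, 29.2% and 28.5% of all peaks of replicates 1, 2 and 3 reached it. Solving the authors' fold and −log10 p for the reads behind each summit gave 13 to 54 reads over the 18 peaks. The region inside Hcn3 had 26 and 28 reads over a background of 3.32 and 4.87 in replicates 2 and 3, and the saline peak in Hcn4 had 21 over 3.14. These read numbers rest on an inferred model of the peak calling.

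The design compares kainic acid with saline, and here the number of peaks per library near the 3 genes together was 1, 7 and 4 with kainic acid and 0, 6 and 0 with saline. The groups overlap, because saline replicate 2 had more peaks than kainic acid replicates 1 and 3. The mean was 4.00 ± 3.00 (SD, n = 3) against 2.00 ± 3.46 (SD, n = 3). As log10(number + 1), the difference was 0.35, within the SD of 0.49 of the saline libraries (two-sided exact permutation p = 0.3, and 0.6 after Benjamini-Hochberg adjustment over 4 comparisons). With 3 libraries against 3 this p cannot go below 0.1. Single libraries decide the size of the difference, which was 0.63 without saline replicate 2, 0.22 without kainic acid replicate 2 and 0.21 without saline replicate 1 or 3.

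Taken singly, no member separated the groups. Hcn2 had 0, 3 and 2 peaks with kainic acid and 0, 3 and 0 with saline, a difference of 0.16 on the log10(number + 1) scale (exact permutation p = 1). Hcn3 had 1, 3 and 1 against 0, 2 and 0, a difference of 0.24 (exact permutation p = 0.3, adjusted 0.6). Hcn4 had 0, 1 and 1 against 0, 1 and 0, a difference of 0.10 (exact permutation p = 1). In 33.5% of all protein-coding genes every kainic acid list had more peaks within 50 kb than every saline list, and this held for 0 of the 3 HCN genes. With saline replicate 2 left out the difference was 0.36 for Hcn2, 0.40 for Hcn3 and 0.20 for Hcn4.

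**Figure D2:**
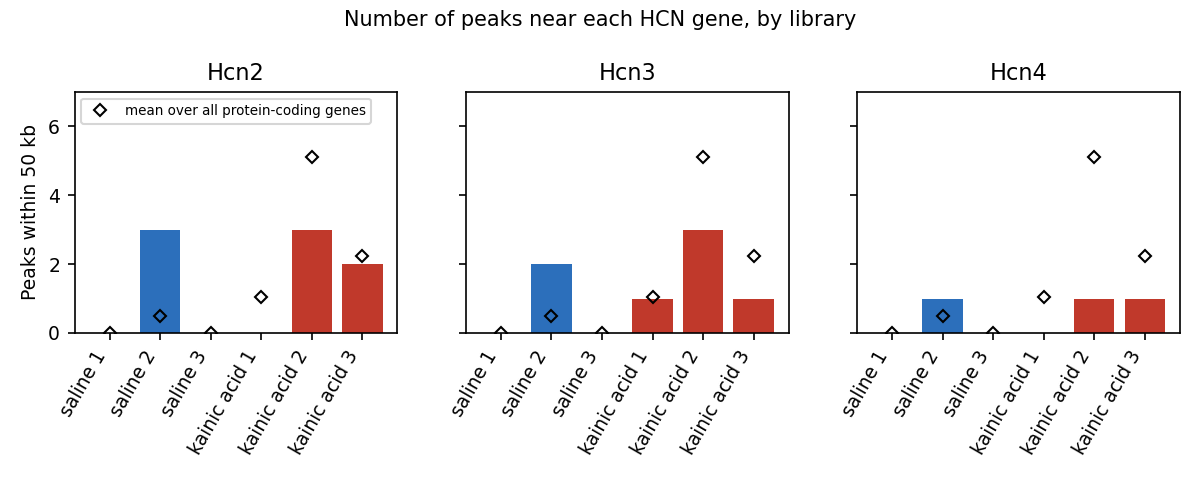
Number of peaks within 50 kb of each HCN gene in the 6 libraries (bars, blue saline and red kainic acid), with the mean over all protein-coding genes for the same library (open diamonds). In kainic acid replicates 2 and 3 every bar is below its diamond, and in saline replicate 2 every bar is above it.

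These numbers move with the length of the lists, which run from 2 to 63197 peaks. As a share of its list, 0.183% of the peaks of saline replicate 2 lay near the HCN genes (95% Clopper-Pearson interval 0.0672 to 0.398, counting error only). In kainic acid replicates 1, 2 and 3 the shares were 0.00666% (0.000169 to 0.0371), 0.0111% (0.00445 to 0.0228) and 0.0135% (0.00368 to 0.0345). The mean share was lower with kainic acid, with a difference of −0.0506 percentage points (exact permutation p = 1), so the direction of the comparison turns when list length is taken into account. Saline replicates 1 and 3 enter that mean at 0, and for the list of 7 peaks of replicate 1 the interval reaches 41.0%.

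Set against all protein-coding genes, the HCN genes had fewer kainic acid peaks and more peaks of saline replicate 2 than the mean gene. The 9 kainic acid numbers (3 genes in 3 libraries) were all below the mean over genes, which was 1.05, 5.11 and 2.22 in replicates 1, 2 and 3. Kainic acid replicate 2 had a peak within 50 kb of 77.4% of protein-coding genes and of all 3 HCN genes. Kainic acid replicate 3 had one at 63.3% of genes and at all 3, and kainic acid replicate 1 at 46.3% and at 1, Hcn3. Any kainic acid list had one at 78.0%. The median number per gene was lower than the mean, at 0, 3 and 1 in replicates 1, 2 and 3. Hcn3 exceeded the median in replicate 1 and Hcn2 in replicate 3. Hcn4 was below it in replicate 2, with 1 peak, and all other HCN numbers equalled it. Saline replicate 2 had a peak near 30.2% of genes and near all 3 HCN genes, with a mean of 0.478 per gene. Of all genes 4.05% of genes had 3 or more such peaks, as Hcn2 did, and 10.7% had 2 or more, as Hcn3 did. The corresponding shares of genes were 0.0320% for saline replicate 1 and 0% for saline replicate 3, and no HCN gene had one.

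In replicated regions Hcn3 and Hcn4 lay near the middle of all genes, and Hcn2 was among the 37.3% of genes with 0. Hcn3 had 2 replicated regions, and 42.3% of genes had as many or more. Hcn4 had 1 and Hcn2 had 0, where the median gene had 1. Per length of window, Hcn3 had 17.6 regions per Mb, Hcn4 7.13 and Hcn2 0, against a median of 8.72. Near the 3 genes 33.3% of the regions with a kainic acid peak were in at least 2 lists, against 40.3% over the series, which lies inside the 95% Clopper-Pearson interval of the former (7.49 to 70.1). None of the 3 replicated regions had a saline peak, for which the exact interval reaches 70.8%. The share over all replicated regions of the series is not given here.

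**Figure D3:**
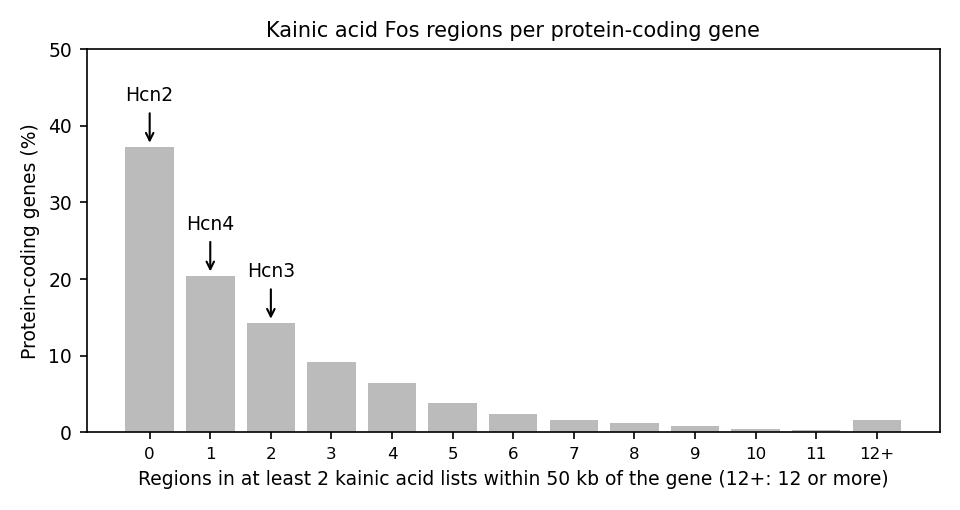
Percent of the 21887 protein-coding genes (bars) by how many replicated kainic acid regions they have within 50 kb, with arrows at Hcn2 (0), Hcn4 (1) and Hcn3 (2). The HCN genes stand in the 3 tallest bars, where most genes are.

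All 3 replicated regions rested on kainic acid replicate 2, the longest list. Without that library 0 remained, without replicate 3 there was 1, and without replicate 1 there were 2, those inside Hcn3 and before Hcn4. Replicate 2 holds 63197 peaks, and the series has 66683 regions with a kainic acid peak. The share of all replicated regions that include replicate 2 is not given here. Its part in all 3 regions is therefore not read as particular to HCN genes. With −log10 q of at least 10 there were 0. When a peak was counted only for its nearest protein-coding gene, the region inside Hcn3 alone was left, and the Hcn4 difference turned to −0.10, since Hcn4 then kept only its saline peak.

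Related genes were counted in the same way. Among the partners and regulators of HCN channels, 7 of 9 had a replicated kainic acid region, with a median of 2 regions per gene against 1 over all protein-coding genes. Nedd4l, a ubiquitin ligase that acts on membrane proteins, had the most with 32, over a span of 333.3 kb. Kcne2, an accessory subunit of potassium channels, and Flna, an actin-binding scaffold, had 0. Pex5l, which encodes the brain auxiliary subunit TRIP8b that controls HCN trafficking, had 5, of which 3 were in all 3 lists. Among the cyclic nucleotide-gated channels of sensory cells, which cyclic nucleotides open directly, 3 of 6 had one, at most 2 regions each (Cnga3 and Cngb1), and Cnga1, Cnga2 and Cnga4 had 0. Among the EAG family potassium channels, which share the HCN channels' cyclic nucleotide-binding fold, 7 of 8 had one, with 6 at Kcnh1 and 0 at Kcnh8. The median span was 36.8 kb in the partner list, 42.1 kb in the cyclic nucleotide-gated list and 156.1 kb in the EAG list. It was 19.5 kb in the HCN genes and 17.2 kb over all protein-coding genes, and a longer gene offers more room for regions. These lists are small, their shares stand beside 62.7% of all protein-coding genes, and differences between them were not tested.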

How the data were processed

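Fos ChIP-seq was run on hippocampus, with 3 saline and 3 kainic acid libraries; the 1 input library was not analysed here. Per the submitters' processing notes, the tools were Trim Galore 0.6.4, Bowtie2 2.3.4.3, MACS2 and deepTools 3.5.0, and the build was mm10. The peak names in the files record a mapping quality of 30. The cutoff and the control are not given in the sources used here. The authors deposited 1 list per library, with a score, a fold (a linear ratio to local background), a −log10 p, a −log10 q and a summit per peak. Values are not scaled between libraries and were used as ranks within a list. No read totals were used, so depth is known only through list length and the solved pileups.

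Peaks were merged at 1 bp of overlap (Python 3.11.15, pandas 2.3.3, scipy 1.17.1), and a replicated region has a peak in at least 2 kainic acid lists. Genes came from the RefSeq table of GRCm38.p6, matched by symbol, because that table gives Hcn3 and Hcn4 as older names of each other. All 23 genes of the 3 related lists matched. The reads k over a summit and the background λ come from the deposited fold, taken as (k + 1)/(λ + 1), and the Poisson p. Merging, counting and solving were tested on simulated data. The genes, lists and tests were chosen with earlier results of these data known. Genes named are the 3 members, their neighbours at peaks, and the members of related lists with the most or no regions; Pex5l was named after its value was seen. One of the 3 replicated regions, in the Hcn3 window, enters every count but is not reported here singly; in kainic acid replicate 2 it ranked above the regions described.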

Additional observations from a re-analysis of the deposited data

How the results depend on the processing

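The difference in peak number between kainic acid and saline libraries for the 3 genes together kept its direction at reaches of 10, 25 and 100 kb, at −log10 q of at least 5 and 10, for merged regions, for nearest genes and with one library left out (0.21 to 0.63). It turned to −0.0506 percentage points when each number was taken as a percent of its list, as did Hcn2 (−0.0267), Hcn3 (−0.0154) and Hcn4 (−0.00852). With nearest genes only, Hcn4 turned to −0.10. At −log10 q of at least 10, Hcn2 and Hcn4 had a difference of 0, because no peak near them was left in any list. With one library left out the difference ran from 0.04 to 0.36 for Hcn2, from 0.14 to 0.40 for Hcn3 and from 0.05 to 0.20 for Hcn4. Library numbers are not stated to mark a pair, so the libraries were not treated as pairs. For each gene, log10(number + 1) of peaks within 50 kb was taken as its deviation from the gene's mean over the libraries of that group. Correlations of these deviations between same-numbered libraries, over all protein-coding genes, were 0.354, 0.347 and 0.0137. Kainic acid replicate 1 also gave 0.354 with saline replicate 3, and −0.354 with saline replicate 2. Saline replicates 1 and 3 hold almost no peaks, so their deviations mirror those of saline replicate 2 with opposite sign. These correlations therefore cannot tell whether libraries are paired, nor whether the peak numbers themselves rise or fall together. The replicate block gave a difference of 0.35 with an exact sign-flip permutation p = 0.25, the smallest that 3 pairs allow. For the single genes this permutation p was 1 (Hcn2), 0.25 (Hcn3) and 1 (Hcn4). The exact tests could not pass 0.05 at this size, so their p-values say nothing about stability. The 3 replicated regions became 5 at a reach of 100 kb, 1 with nearest genes only and 9 with any list. They became 0 with all 3 lists and 0 at −log10 q of at least 10, and ran from 0 to 3 with one library left out. With equal numbers of peaks per list there were 2, both near Hcn3, and Hcn4 had 0. Of 137 alternative values, 104 kept their direction or stayed near the reported value, 28 moved and 5 reversed. Part of the 104 could not have come out otherwise. Leaving out a saline library cannot change the number of replicated kainic acid regions. A 0 for regions with a saline peak cannot rise when a library is left out, and the replicate block returns the same difference by construction. The 104 is therefore no measure of stability.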
